A study of Caenorhabditis elegans with 4 samples.

Results

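The regions described here are the ZFP-1 peaks of chromosome IV whose midpoint lay from 7 Mb to below 13.5 Mb on WormBase WS220, the stretch between the large piRNA gene clusters of this chromosome. They were picked by position alone, with no use of score or width. The list deposited for the whole series held 13878 peaks, of which 2003 lay on IV and 1066 in the stretch. Those 1066 peaks are called the members below. In the same stretch, the list of ChIP replicate 1 held 255 of its 3559 peaks and that of replicate 2 held 456 of its 6371.

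ZFP-1 is a chromatin protein of Caenorhabditis elegans with PHD zinc fingers, related to mammalian AF10, and it works with DOT-1.1, the worm counterpart of the histone H3 lysine 79 methyltransferase DOT1L. It is known for binding near the promoters of widely expressed genes and for a role in RNA interference. piRNAs (21U-RNAs) are small RNAs that the Argonaute PRG-1 carries in the germline, and in this species most are transcribed from small separate genes packed into clusters on IV. Of the piRNA genes in the RefSeq gene table for assembly WBcel235, 14714 of 15363 (95.8%) are on IV. That assembly is not the one of the peak lists, so neither the piRNA genes nor any other gene could be placed beside the peaks, and the naming of the stretch was not checked against gene positions. No base sequence is printed for the same reason.

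The assay was chromatin immunoprecipitation with sequencing (ChIP-seq) in intact L3 (third-stage) larvae of N2, the wild-type strain, both males and hermaphrodites, grown at 20 degrees. An affinity-purified rabbit polyclonal antibody against the C-terminal part of ZFP-1 gave 2 ChIP samples, and 2 input samples had no peak list analysed here. The labels do not tell whether the replicates were separate cultures, and no mutant lacking ZFP-1 was among the samples. Whole larvae mix all tissues, so a peak shared by many cells at a low level cannot be told apart from one in few cells. Read depth was unknown, since the files give only start, end and 1 score per peak. The score is the authors' own, has no stated scale, and is used only to rank or filter peaks within a list, apart from a correlation of the replicates' scores across shared peaks. Scores of different lists stand side by side at some sites, but their levels are not compared.

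The stretch was the peak-rich part of chromosome IV. It held 53.2% of the series-list peaks of IV (1066 of 2003, exact 95% interval 51.0 to 55.4%) on 37.2% of the chromosome's span. The density was 164 peaks per Mb, against 85.4 per Mb over the rest of IV. Both replicates showed the same order, with 39.2 against 26.4 peaks per Mb in replicate 1 and 70.2 against 42.2 in replicate 2. The series list gave a density ratio of 1.92 (95% interval 1.76 to 2.10). Replicate 1 gave 1.48 (1.25 to 1.76), and the ratio in replicate 2 was 1.66 (1.46 to 1.90). Exact two-sided binomial tests of the counts against the share of sequence gave adjusted p-values of 2.19e-47, 5.78e-06 and 3e-14 over the 3 lists. These tests treat neighbouring peaks as independent, which they are not. The series list rests on the same ChIP experiment as the replicate lists, so it is not independent evidence.

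**Figure D1:**
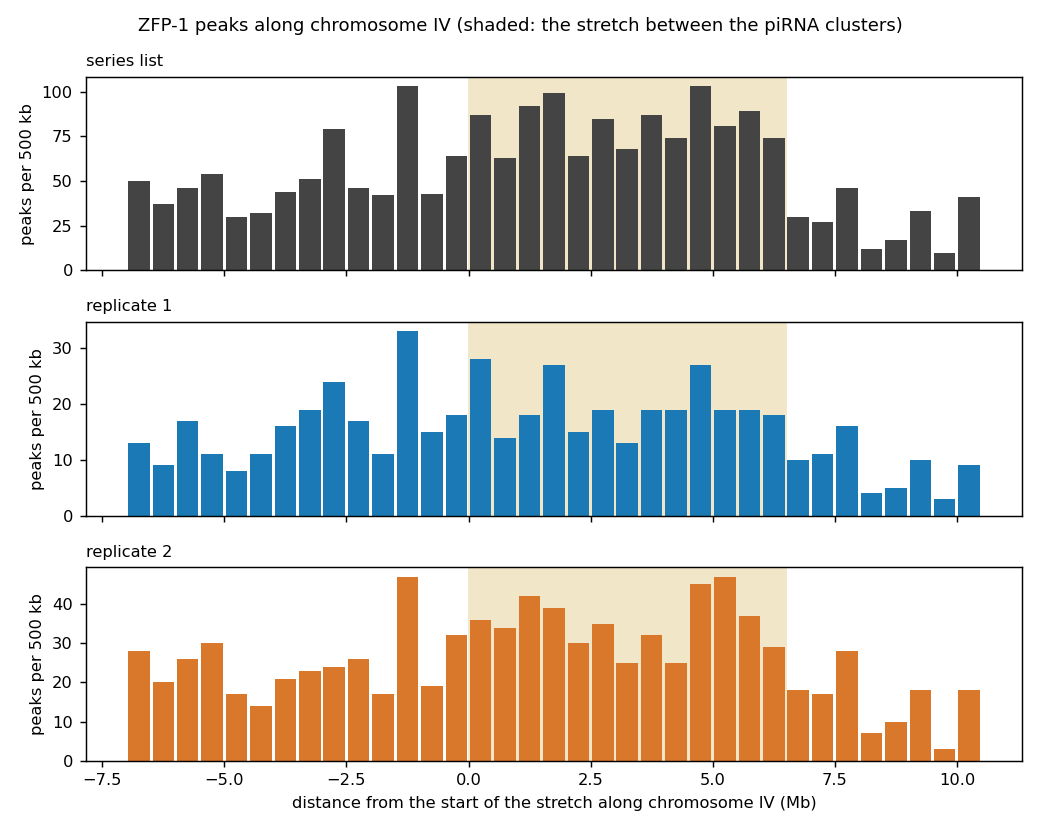
Number of ZFP-1 peaks (y axis) in 500 kb bins along chromosome IV (x axis, distance in Mb from the start of the stretch) in the series list, replicate 1 and replicate 2; the shaded area is the stretch and the last bin on the right is incomplete. Bins of the stretch held 63 to 103 series-list peaks, and the bin count dropped from 74 to 30 across its right edge, while a bin to its left also reached 103.

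Peaks were spread over the whole stretch. Its 13 bins of 500 kb held 82.0 ± 12.7 members each (SD, 13 bins), from 63 at 7.5 to 8 Mb up to 103 at 11.5 to 12 Mb. Replicate 1 had 19.6 ± 4.86 peaks per bin (13 to 28) and replicate 2 had 35.1 ± 6.98 (25 to 47). Some bins left of the stretch were within its series-list range, with 79 peaks at 4 to 4.5 Mb, 103 at 5.5 to 6 Mb and 64 at 6.5 to 7 Mb. At 100 kb, the members numbered 3 to 32 per bin with a median of 15, and none of the 65 bins was empty. The densest 100 kb, from 8 to 8.1 Mb, was the same in the series list and in replicate 2, whereas replicate 1 was densest from 11.8 to 11.9 Mb. Across the 13 bins, the Pearson r between the replicates was 0.50 for peak counts (Spearman rho = 0.53) and 0.90 for covered bases (rho = 0.84). These correlations are across positions on 1 chromosome and describe the lists only.

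The sides of the stretch were unlike each other. On the right, from 13.5 to 17 Mb, density fell to 50.0 series-list peaks per Mb, with 16.9 for replicate 1 and 28.9 for replicate 2. The stretch was denser than this right side by 3.28 times (2.79 to 3.87), 2.33 times (1.75 to 3.14) and 2.43 times (1.96 to 3.05), with exact binomial adjusted p-values of 5.53e-61, 6.81e-10 and 5.5e-18 over 6 tests. Bins on the right held 10 to 46 series-list peaks, so none reached the 63 of the poorest bin in the stretch. In the replicates the bins did overlap, with up to 16 peaks on the right against at least 13 in the stretch in replicate 1, and 28 against 25 in replicate 2.

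The left side, from 4.5 to 7 Mb, came closer to the stretch. It held 119 series-list peaks per Mb, with 37.6 for replicate 1 and 56.4 for replicate 2. The ratio was 1.38 (1.21 to 1.57, exact binomial adjusted p = 8.87e-07) in the series list and 1.24 (1.03 to 1.51, adjusted p = 0.0301) in replicate 2. It was 1.04 (0.82 to 1.34) in replicate 1, where no difference was shown (exact binomial adjusted p = 0.765). A single bin, from 5.5 to 6 Mb, held 103 of the 298 series-list peaks on this side, 33 of the 94 in replicate 1 and 47 of the 141 in replicate 2. Without that bin, left out after its count was seen, the ratios were 1.68 (1.44 to 1.97), 1.29 (0.97 to 1.73) and 1.49 (1.19 to 1.88) in the same order of lists. The stretch kept all its bins, so leaving out the fullest bin of the left side was bound to raise the ratios. The intervals do not allow for that choice.

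At the left edge itself, the 500 kb inside held 87 members and the 500 kb outside held 64 series-list peaks. At the right edge the counts were 74 inside and 30 outside. In replicate 1 the counts inside and outside were 28 and 18 at the left edge and 18 and 10 at the right edge. In replicate 2 they were 36 and 32 at the left edge and 29 and 18 at the right edge. The first member, IV from 7011777 to 7012045, scored 20.98, and the last peak before the edge, from 6988160 to 6988499, scored 19.12. The last member, from 13493621 to 13493964, scored 12.85, and the next peak beyond the edge, from 13502755 to 13503283, scored 82.76.

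Against the middle 6.5 Mb of the other autosomes combined, no difference in density was shown. The centres of I, II, III and V together held 176 series-list peaks per Mb, 44.7 in replicate 1 and 75.7 in replicate 2. The ratio was 0.93 (0.870 to 0.996, an interval with no adjustment) for the series-list peaks. It was 0.88 (0.76 to 1.01) for replicate 1 and 0.93 (0.84 to 1.03) for replicate 2, so the intervals of the 3 lists reach from 0.76 to 1.03. No list passed the exact binomial test after adjustment over the 3 lists (adjusted p = 0.0943, 0.0943 and 0.148), and the unadjusted exact p of the series list was 0.0361. Taken singly, the centres held 189 (I), 179 (II), 186 (III) and 150 (V) series-list peaks per Mb, so the stretch with 164 lay between V and II. The test against each centre is given among the alternatives in the closing section.

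Members were narrow, with a median width of 328 bp (interquartile range 225 to 522 bp) and a range of 146 to 3480 bp. The rest of IV had nearly the same median, 322 bp. Of the 1066 members, 7 (0.66%, exact 95% interval 0.26 to 1.35%) were 2 kb wide or more and none was 4 kb or more. The share at 2 kb or more was 0.85% on the rest of IV, 1.35% in the centres of I, II, III and V and 1.00% over the whole list. On the rest of IV, too, no series-list peak was 4 kb or more. The centres of I, II and III held 2, 3 and 5 series-list peaks of 4 kb or more and that of V held 0, counts too small to compare. Width and score rose together across members (Spearman rho = 0.77 over 1066 members), which is a description only, since both come from the same peak calls.

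In the replicate lists the peaks of the stretch had larger median widths than those elsewhere on IV. The median was 1353 bp in replicate 1 and 1310 bp in replicate 2, against 1136 and 1117 bp on the rest of IV. Peaks of 2 kb or more made up 27.1% of replicate 1 (69 of 255) and 27.0% of replicate 2 (123 of 456), against 53 of 290 and 78 of 463 on the rest of IV. The centres of I, II, III and V were closer to the stretch, with medians of 1315 bp (replicate 1) and 1271 bp (replicate 2) and 27.9% and 24.6% of peaks at 2 kb or more. At 4 kb or more, the share in the stretch was lower than in those centres and higher than on the rest of IV. Replicate 1 had 13 of 255 in the stretch, 74 of 1162 in the centres and 9 of 290 on the rest of IV. For replicate 2 the counts were 25 of 456, 162 of 1967 and 16 of 463. No test of these differences was made. A replicate peak in the stretch often held several members: 116 of 255 replicate 1 peaks (45.5%) and 184 of 456 replicate 2 peaks (40.4%) overlapped 2 or more, with a maximum of 6 and 8. Peaks of the replicates covered 6.91% (replicate 1) and 12.6% (replicate 2) of the stretch, and the members covered 7.08%.

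The widest replicate 2 peaks show how the lists divide the same sites. The widest, IV from 13024546 to 13034104 (9559 bp, score 3100), overlapped 3 replicate 1 peaks with scores up to 2247 and 7 members with scores up to 132.58. The next, from 10815586 to 10825036 (9451 bp), overlapped 2 replicate 1 peaks and 8 members, the best at 122.5. The third, from 10498826 to 10508166 (9341 bp), overlapped 3 replicate 1 peaks and 8 members, the best at 167.79. All of these sites were thus found in replicate 1 as separate narrower peaks. The peak from 11486519 to 11495742 (9224 bp) held 7 members, among them one of the best-scoring of the stretch at 212.34. The fifth, from 11520693 to 11527703 (7011 bp), was the exception, since replicate 1 also called most of it as a single peak, from 11521848 to 11527837 (5990 bp), with the tied top score of 3100. For comparison, the widest replicate 2 peaks in the centres of I, II, III and V were 14375, 28826, 18139 and 16644 bp.

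Width in a replicate did not always come with a high score. The widest replicate 1 peak of the stretch, IV from 7141307 to 7147562 (6256 bp), scored 55.75, close to the lowest score of that list in the stretch, 50.83. It overlapped 2 replicate 2 peaks, the better at 1523, and 2 members that covered 466 bp of it. The second widest of replicate 1, from 11581614 to 11587722 (6109 bp), scored 147.96 and held 4 members covering 1456 bp. These replicate 1 peaks were looked up after their widths were seen.

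The 5 widest members were all met in both replicates, and each lay inside a wider replicate 2 peak. Those replicate 2 peaks were 4765, 3447, 5739, 9559 and 3206 bp wide, in the order of the members below. IV from 8232141 to 8235620 (3480 bp) scored 95.05 and lay under a replicate 1 peak scoring 757 and a replicate 2 peak at 3100. IV from 10934564 to 10937430 (2867 bp) scored 104.8 and lay under peaks at 3100 in both replicates, as only 4 sites of the stretch did among mutual best overlaps. The next in width, from 10344248 to 10346657, scored 139.33 over 2410 bp. After it came the member from 13029294 to 13031665 (2372 bp, score 80.4) and the member from 11478735 to 11480904 (2170 bp, score 203.57).

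The 10 best-scoring members met in both replicates scored 197.49 to 226.84 and were 457 to 2170 bp wide. The 2 highest, IV from 7817457 to 7818473 and from 12842757 to 12843441, scored 226.84 and 225.78. The next scored 217.66 (from 7401785 to 7402602), then 215.7 (from 7016126 to 7017523) and 212.34 (from 11488769 to 11490370), followed by 205.43 (from 7047617 to 7048248) and 205.35 (from 7319580 to 7320754). In 9 of the 10 the replicate 2 peak reached 3100, and the exception was IV from 7047617 to 7048248, at 2537. Replicate 1 scores ran from 680.52 to 2781.81, the highest at IV from 7401785 to 7402602, and none of the 10 reached 3100 there. Of the 10, 6 lay in the first Mb of the stretch.

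Taken over all members, scores in the stretch were not high. Of the members, 49.5% (528 of 1066, exact 95% interval 46.5 to 52.6%) were in the better-scoring 50% of the whole series list, and 10.7% (114, 8.90 to 12.7%) in its highest-scoring 10%. On the rest of IV the shares were 56.6% and 14.5% (530 and 136 of 937). The median score was 16.8 in the stretch, 21.6 on the rest of IV and 16.85 over the whole list. In the replicates the share in the better-scoring 50% was 51.8% in the stretch and 54.5% on the rest of IV for replicate 1, and 54.2% and 55.7% for replicate 2. These shares were compared as values, with no test.

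Neighbouring members lay close together. The median gap from the end of a member to the start of the next was 1354 bp (interquartile range 413 to 7179 bp), against 2792 bp on the rest of IV. Of the 1065 gaps, 472 (44.3%, exact 95% interval 41.3 to 47.4%) were under 1 kb, against 31.8% (28.8 to 34.9%) on the rest of IV and 44.1% (42.6 to 45.5%) in the centres of I, II, III and V. The median gap was 11093 bp in replicate 1 and 4783 bp in replicate 2, against 16829 and 6815 bp on the rest of IV. It was shorter on the left side of the stretch, at 9817 and 4622 bp, and in the other centres it was 10751 and 5724 bp. A higher density by itself shortens gaps, so the gaps are not a measure apart from the density.

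**Figure D2:**
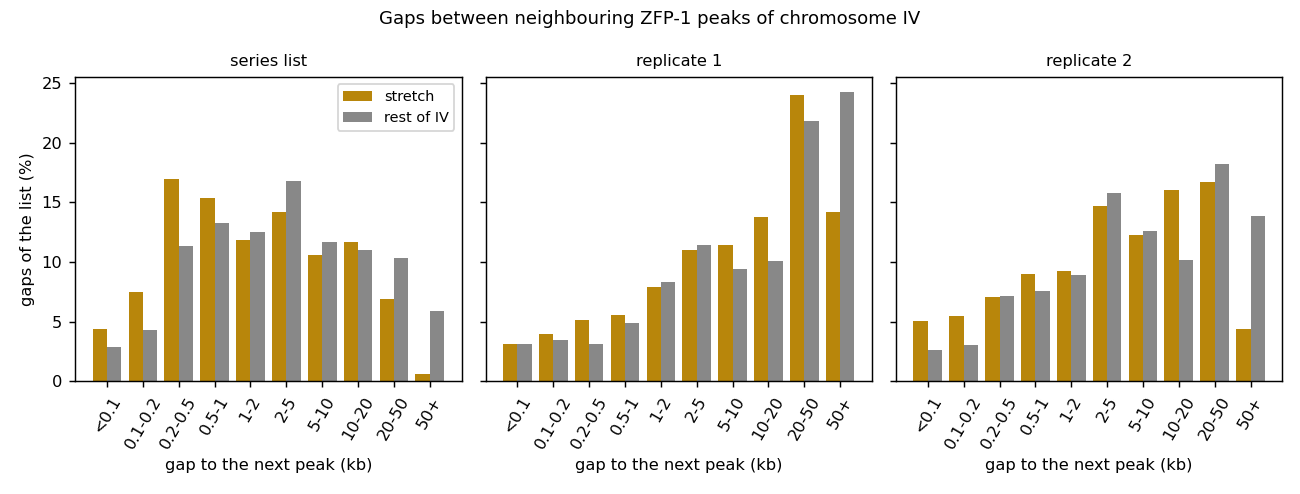
Share of gaps between neighbouring peaks (y axis, % of the gaps of a list) by gap length (x axis, kb, classes of unequal width) for the stretch and the rest of chromosome IV in the 3 lists. In the series list 472 of 1065 gaps of the stretch were under 1 kb, and 6 were 50 kb or longer, against 55 of 935 on the rest of IV.

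The members formed 594 runs when neighbours under 1 kb apart were joined. Of the members, 385 (36.1%) stood alone, 347 lay in runs of 2 or 3, 261 in runs of 4 to 7 and 73 in 8 runs of 8 or more. Run sizes were counted in the stretch alone, and the share of gaps under 1 kb was near that of the other centres. Runs mixed high-scoring and weak members. The best members of the 52 runs of 4 to 7 scored 118 and were 755 bp wide at the median, against 15.8 and 349 bp for the other 209 members of those runs. Taking the best of several is bound to raise its score, so this describes the runs and tests nothing.

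The longest run by number of members, IV from 12833704 to 12846047, held 12 members with scores from 3.5 to 225.78. It was covered by 6 peaks of each replicate, and 8 of the 12 members were met in both. The second longest, from 8573344 to 8581015, was of another kind. Its 10 members, 211 to 752 bp wide, covered 65.9% of 7672 bp, yet scored only 2.11 to 11.23, and none met a peak of either replicate. The nearest replicate peaks were 5.77 kb (replicate 1) and 5.64 kb (replicate 2) away. Each of the other 6 long runs had at least 4 members met in both replicates. The long runs were looked up after the run lengths were seen.

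**Figure D3:**
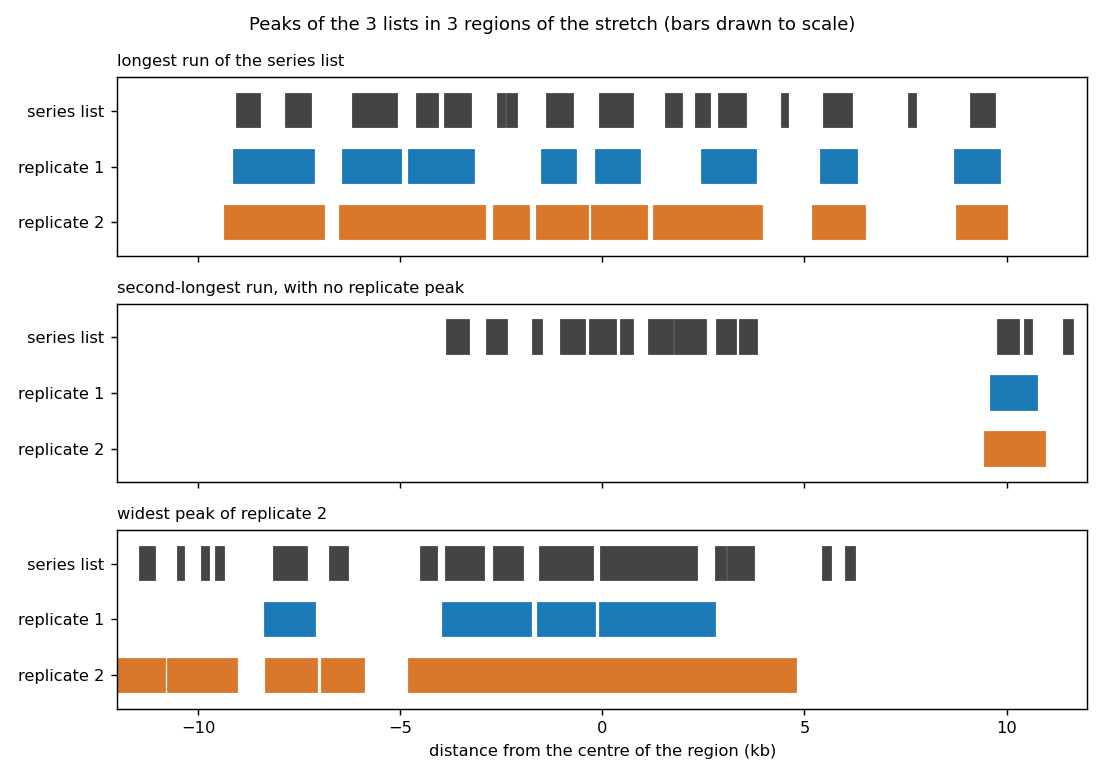
Peaks of the series list, replicate 1 and replicate 2 (rows) as bars drawn to scale against the distance from the centre of the region (x axis, kb) for the longest run, the second-longest run and the widest replicate 2 peak of the stretch. The second-longest run has 10 series-list peaks and no replicate peak above or below them, whereas the other regions are covered in both replicates.

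Long stretches with no series-list peak were few, as in the other centres. Of the 1065 gaps between members, 6 were 50 kb or longer, against 55 of 935 on the rest of IV and 31 of 4575 in the centres of I, II, III and V. In the replicates, gaps of 50 kb or longer made up 14.2% (replicate 1) and 4.4% (replicate 2) of those in the stretch. The shares were 11.7% and 3.6% in those centres and 24.3% and 13.9% on the rest of IV. The longest gap between members, IV from 12890712 to 12991690 (101 kb), held no peak of either replicate. The next measured 74.4 kb (from 8651007 to 8725413) and 67.3 kb (from 13416092 to 13483356), then 58.96 kb (from 12468260 to 12527219) and 53.1 kb (from 9540429 to 9593516). No peak of either replicate lay wholly inside any of these 5 gaps. The longest gap of replicate 2, from 12855244 to 12998624 (143 kb), contained the first of them and 4 members with scores up to 11.85. For comparison, the longest series-list gap was 100504 bp in the centres of I, II, III and V and 182468 bp on the rest of IV. For replicate 2 these were 113859 and 286487 bp.

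Replicate 1 had a longer empty part that replicate 2 did not share. It listed no peak on IV from 10008602 to 10174481 (166 kb), where 11 replicate 2 peaks with scores from 65.28 to 681.95 and 21 members with scores from 2.18 to 88.64 lay wholly inside. Longer replicate 1 gaps were found elsewhere, up to 174960 bp in the centres of I, II, III and V and 307834 bp on the rest of IV.

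At the other end of the spacing, 51 members (4.78%) had no series-list peak within 10 kb on either side. They were counted in the stretch alone, with no share for other parts. Their median score was 10.9 and their median width 235 bp. Of these 51, 39 (76.5%) met neither replicate, 10 met replicate 2 alone and 2 met both. Among all members 25.7% met neither, with a median score of 16.8. The part of the lower scores of the 51 in this difference was not tested.

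Nearly all replicate 1 peaks of the stretch were present in replicate 2. Of 255, 254 (99.6%, exact 95% interval 97.8 to 99.99%) overlapped a replicate 2 peak by at least 1 bp, against 276 of 290 (95.2%, 92.0 to 97.3%) on the rest of IV. Over the whole replicate 1 list the share was 97.8% (3479 of 3559), and it was also 97.8% in the centres of I, II, III and V, so the stretch was near the general share. The 1 peak with no counterpart, IV from 7487322 to 7488907, scored 69.87. In the other direction, 236 of 456 replicate 2 peaks (51.8%, 47.1 to 56.4%) met replicate 1, against 55.5% (50.8 to 60.1%) on the rest of IV. The share was 50.4% over the whole replicate 2 list (3211 of 6371) and 51.7% in the other centres. The 220 replicate 2 peaks missing from replicate 1 scored 134 at the median and were 1047 bp wide, against 1232 and 1903 bp for the 236 found in both.

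Over the whole replicate 2 list, peaks met in replicate 1 scored 1121 at the median and the others 138. In the stretch, the share of replicate 2 peaks met in replicate 1 differed by replicate 2 score, with no such shares counted for other parts. It was 7.61% (3.11 to 15.05%) in the lowest-scoring 20% of replicate 2 peaks in the stretch, then 21.98%, 49.5% and 81.3%, and 98.9% (94.0 to 99.97%, 90 of 91) in the highest-scoring 20%. A few strong replicate 2 peaks were missing from replicate 1 all the same. The best-scoring were the peaks of IV from 12190409 to 12191680 (score 1646) and from 12182177 to 12183413 (score 1612), then the peak from 10766641 to 10769540 (score 1358). The best members under them scored 140.63, 137.79 and 119.07.

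Of the 1066 members, 422 overlapped peaks of both replicates (39.6%, exact 95% interval 36.6 to 42.6%), and 366 were found only in replicate 2 (34.3%, 31.5 to 37.3%). Neither replicate had a peak at 274 members (25.7%, 23.1 to 28.4%), and 4 met replicate 1 alone. On the rest of IV, 39.5% (36.3 to 42.7%) met both and 28.0% (25.1 to 31.0%) met neither. Over all 13878 series-list peaks, 38.4% met both, 35.4% met replicate 2 alone and 25.3% met neither, which is close to the stretch. Members met in both scored 50.9 and were 525 bp wide at the median. Those met in replicate 2 alone had 17.4 and 327 bp, and those met in neither had 7.13 and 211 bp. On the rest of IV, series-list peaks met in both had a higher median score, 86.8, with the same median width of 525 bp. That median was 52.5 in the centres of I, II, III and V and 57.0 over the whole list. Per bin of 500 kb, the share met in both ran from 30.6% to 49.5% (mean 39.2 ± 5.68%, SD, 13 bins), so no bin of the stretch was without support.

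**Figure D4:**
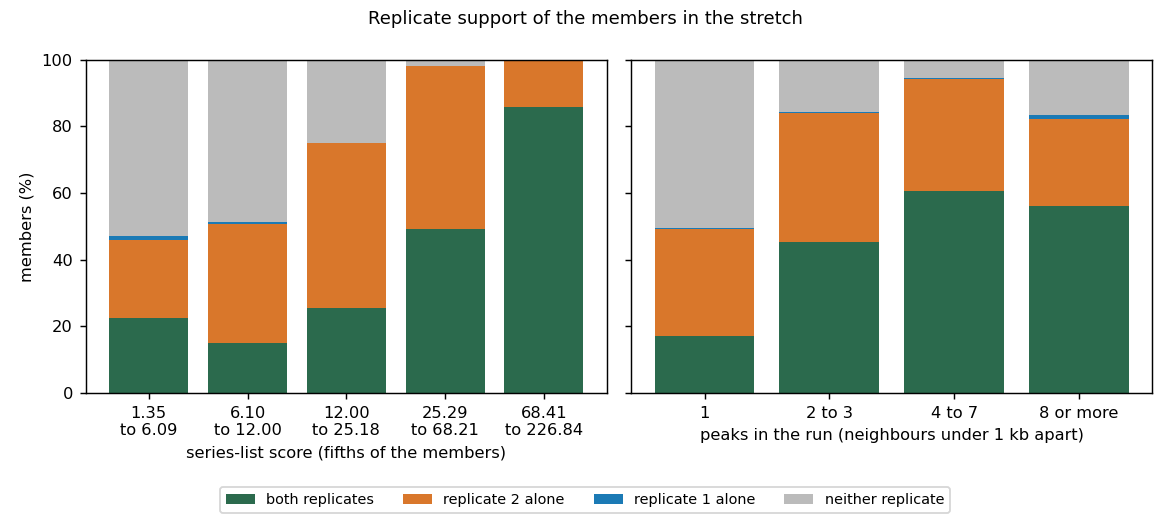
Share of the members (y axis, %) met by a peak in both replicates, in replicate 2 alone, in replicate 1 alone or in neither, in 5 classes of about 20% of the members each by series-list score (left) and by the number of members in a run (right). Of the highest-scoring 20%, 85.9% met both replicates and none met neither; of members standing alone, 50.4% met neither.

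Strong members were mostly met in both replicates, with shares by score counted in the stretch alone. Over the whole series list, too, peaks met in both had a higher median score than those met in neither, 57.0 against 7.035. In the highest-scoring 20% of the members, 183 of 213 (85.9%, 80.5 to 90.3%) met both replicates and the other 30 met replicate 2. In the next 20% by score the share met in both was 49.3%, and in the 20% after that 25.4%. The lowest-scoring 20%, with scores of 6.09 or less, had 22.4% (17.0 to 28.6%) met in both, against 15.0% (10.5 to 20.5%) in the 20% just above. These intervals overlap. All 48 of those low-scoring members lay in runs, and 39 of the 48 (81.2%) lay under a replicate 2 peak of 2 kb or more. The replicate 2 peaks over them scored 1760 and were 2606 bp wide at the median, against 199.5 bp for the members of this class, so an overlap there does not mark a peak of the member's own width.

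Support differed by the size of the run. Of the 385 single members, 17.1% (13.5 to 21.3%) met both replicates and 50.4% (45.3 to 55.5%) met neither. The share met in both was 45.2% (39.9 to 50.6%) in runs of 2 or 3, 60.5% (54.3 to 66.5%) in runs of 4 to 7 and 56.2% (44.1 to 67.8%) in runs of 8 or more. The run from 8573344 to 8581015 alone gave 10 of the 12 members of the last class that met neither. Some replicate peaks spanned up to 8 members, and the part of their width in these shares was not tested. Members under the same replicate peak are not independent, since that peak decides the support of all of them. The 261 members in runs of 4 to 7 came from 52 runs, so these intervals can be too narrow.

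Members met in neither replicate were not all weak. The best-scoring were IV from 9333075 to 9333389 (48.48), from 11854835 to 11855081 (33.77) and from 12637335 to 12637601 (27.76), all above the median of 16.8. The 4 members met in replicate 1 alone, named after their count was seen, all scored 8.98 or less. They were the members from 7487985 to 7488169 (score 2.81) and from 9994768 to 9994969 (1.92), and the members from 10616445 to 10616636 (4.89) and from 12196693 to 12196908 (8.98). Of the replicate 2 peaks in the stretch, 2 met no series-list peak, and both were weak: from 7839659 to 7840527 (score 58.24) and from 8536865 to 8538044 (60.42).

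Where both replicates had a peak, their scores tended to run in a similar order, with exceptions. Mutual best overlaps gave 229 pairs of replicate peaks, over which the log10 scores had a Pearson r of 0.77 and a Spearman rho of 0.83. The points are neighbouring peaks from 2 libraries and not replicates, and scores tied at 3100 are included. In these pairs the median width was 1905 bp in replicate 2 and 1379 bp in replicate 1. Library depth was unknown, and its part in this was not tested. In the stretch, 47 of the 456 replicate 2 peaks (10.3%) scored 3100 or more, against 8.18% of the whole replicate 2 list. The share was 9.07% on the rest of IV and 9.51% in the centres of I, II, III and V. Of the 255 replicate 1 peaks, 4 (1.57%) scored 3100 or more, against 2.70% of the whole replicate 1 list. Here the share was 2.76% on the rest of IV and 3.44% in those centres. Bases covered in both replicates made up 49.3% of those covered in either, which was 93.2% of the replicate 1 bases and 51.1% of the replicate 2 bases.

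**Figure D5:**
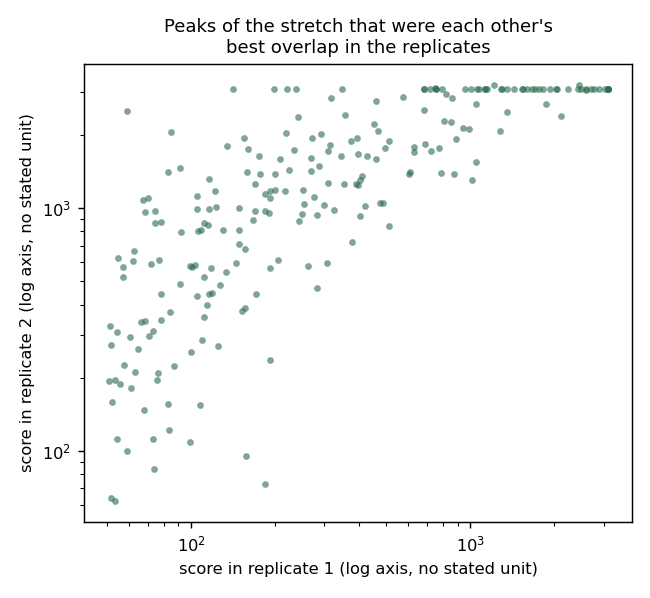
Peak score in replicate 2 (y axis, log scale) against replicate 1 (x axis, log scale) for the 229 pairs of the stretch; each point is a pair, and neither score has a stated unit. The points rise together (Spearman rho = 0.83), and the row of points at the top holds replicate 2 peaks at or near 3100.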

How the data were processed

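ZFP-1 ChIP-seq peaks were mapped by the submitters in 2 ChIP samples of L3 larvae. Peaks were called with MACS in the replicate lists and MACS v2 in the series list, per the file contents, and the file headers name WormBase WS220 as the build. BWA and ce10 are named in the submitters' processing notes without roles. The authors deposited 1 score per peak, and its scale is not given in the sources used here. Nor is it given which reads entered the series list, or whether input was the control.

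Peaks were assigned by midpoint, and coordinates are 1-based with both ends included. The end of the last peak in any list stood for the end of a chromosome, a lower limit of its length. The sides of the stretch ran from 4.5 to 7 Mb and from 13.5 to 17 Mb, limits set from general knowledge of the piRNA clusters and not from the files, and centres were the middle 6.5 Mb of I, II, III and V. Peaks were shared from 1 bp of overlap, and the counts equalled those of bedtools 2.31.1. Densities were compared by exact two-sided binomial tests with Benjamini-Hochberg adjustment, and shares have exact Clopper-Pearson 95% intervals. Both take in the counting error of peaks and leave out the spread between animals or libraries. Both also treat neighbouring peaks as independent, which they are not, so the intervals can be too narrow. The code ran in Python 3.11.15 with scipy 1.17.1, pandas 2.3.3 and numpy 2.4.6 and was tested on simulated data.

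Regions were named by fixed rules: the 10 best-scoring members met in both replicates, the 5 widest replicate 2 peaks, members and gaps, the 3 best-scoring members met in neither replicate, the 3 best replicate 2 peaks absent from replicate 1, the peaks at the edges, and the extreme bins. The members and these rules were chosen with earlier results of these data known.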

Additional observations from a re-analysis of the deposited data

How the results depend on the processing

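For 12 results, 53 alternatives were run. Of these, 27 left the call or the interval of a value as it was, 19 took an untested value outside its interval (Fisher's z for the score correlation), 5 passed a threshold that had not been passed and 2 changed direction. The density ratio to the rest of IV, 1.92, stayed above 1 in all 12 alternatives and past the threshold in the 11 that were tested, from 1.41 in the highest-scoring 10% to 3.02 against the part to the right alone; against the part to the left alone it was 1.59. The ratio to the other centres, 0.93, became 1.03 in the highest-scoring 10% (exact binomial adjusted p = 1.0). It became 1.09 against V alone, 0.87 against I, 0.91 against II and 0.88 against III, all past the threshold over 4 exact tests chosen after seeing the data. Keeping only series-list peaks met in replicate 1 gave 0.89 (exact binomial p = 0.0319), and only those met in replicate 2 gave 0.91 (exact binomial p = 0.0212). For peaks met in both replicates the ratio was 0.90 (exact binomial p = 0.0567). These were single tests with no adjustment.

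Support in both replicates, 39.6%, became 3.38% with 50% reciprocal overlap, which narrow peaks inside wide ones fail. Between better-scoring parts of the lists it was 35.8%. The share met in replicate 1, with or without replicate 2, was 39.96%, and the share met in replicate 2, with or without replicate 1, was 73.9%. Of replicate 1 peaks, 74.9% met replicate 2 with 50% reciprocal overlap, 100.0% in the better-scoring parts and 89.8% with lists of equal length; in the other direction 41.9% and 76.9% did under the first and the last. Median widths in the better-scoring parts were 499.5 bp for members, 1646 bp for replicate 1 and 1893 bp for replicate 2, and 412, 1632 and 1785 bp with peaks under 1 kb apart merged. Median gaps in the better-scoring parts were 3810, 30807 and 15079 bp, since fewer peaks remain, and members' midpoints lay 1860 bp apart. The score correlation was 0.70 without tied scores. Depth was unknown, so it sets no stated limit here. No paired analysis was possible because peaks were listed for 1 group alone, the ChIP samples.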
